A study of Arabidopsis thaliana with 8 samples.

Results

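The genes described here are 35 Arabidopsis thaliana loci of the circadian clock and its direct outputs, taken from a fixed list of locus identifiers without use of any measured value. They comprise the morning MYB factors CCA1, LHY and 6 REVEILLE (RVE) genes, the PSEUDO-RESPONSE REGULATOR (PRR) genes with TOC1, the evening complex genes, GI and the ZTL family, the LNK coactivators, CHE, the CDF, CO and COL genes, and the RNA-binding protein genes GRP7 and GRP8. All 35 had a probe on the array and all 35 were among the 22101 genes tested, out of 26716 loci with a probe. Each was well above background on all 8 arrays, so no member entered the test through 1 group alone. Transcripts were measured on single-colour Agilent arrays in 2 groups of 4 seedling samples. The first group was the dominant mutant bil1-1D (bzr1-1D, in the Col-0 ecotype), in which the transcription factor BZR1, a mediator of brassinosteroid responses, is stabilised by a dominant mutation, given 1 µM of the hormone brassinolide for 3 hours. The other was Col-0 wild type given the solvent DMSO for 3 hours. Before that, both were grown for 14 days on 1 µM brassinazole, which blocks brassinosteroid synthesis, under 16 hours of light and 8 hours of dark at 22 °C. The labels do not give the hour of harvest, nor whether it was the same for both groups.

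The plant clock is a set of transcription factors that repress or activate each other in sequence through the day. CCA1 and LHY peak around dawn and repress evening genes, the PRR proteins follow one after another and repress CCA1 and LHY, and the evening complex of ELF3, ELF4 and LUX acts around dusk. RVE8 and its relatives activate evening genes with the help of the LNK proteins, and the outputs reach flowering through GI, FKF1, the CDF repressors and CO. BZR1 links brassinosteroid to growth and represses the genes for hormone synthesis. A single harvest measures each gene's level at that hour and cannot separate a change of amplitude from a change of timing. If the groups were harvested at different hours, that difference could not be told apart from the group.

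Genotype and treatment changed together, so no difference below belongs to one of them alone. The 4 arrays of bil1-1D lay on 1 slide and the 4 wild-type arrays on another, each slide with its own scan, so slide, scan and group cannot be told apart. Whether the 4 samples of a group were grown separately is not given in the labels, so the p-values may measure technical spread only. The bil1-1D slide was dimmer, with a 75th percentile of the processed signal of 3033 to 3821, against 4638 to 6153 on the wild-type slide. DWF4, a brassinosteroid synthesis gene that the hormone represses, stood at -4.77 ± 0.14 in bil1-1D and 1.28 ± 0.18 in wild type (SD, n = 4 each, normalized log2 signal), and CPD, which acts in the same synthesis, stood at -1.61 ± 0.11 in bil1-1D and 2.23 ± 0.34 in wild type. All 8 markers of green tissue and all 10 markers of roots were well above background on every array. The summed level of the root markers was 27.1 to 32.7 times the 75th percentile in bil1-1D and 34.0 to 41.9 times in wild type. That sum mostly follows 1 gene, PYK10 (4.70 in bil1-1D and 5.13 in wild type), where the next brightest, CASP1, stood at 0.57 and 0.12. By sign, 7 root markers were lower and 3 higher in bil1-1D. The summed level of the green markers was 501 to 567 times the 75th percentile in bil1-1D and 460 to 572 times in wild type. Of the green markers, 3 rose and 3 fell, and the changes of the 8 ran from -0.46 to 0.24 on the log2 scale. LHCB1.3 and RBCS1A, the brightest, differed by 0.24 and 0.18. Of the root markers, 3 fell and none rose (0 higher at an unadjusted p under 0.05), with PYK10 at -0.43 and CASP1, which did not pass, at 0.45. That is 75% of the green and 30% of the root markers called, against 55.9% of all genes. The median difference of the root markers from their wild-type means was 0.07, -0.65, -0.42 and 0.09 on bil1-1D replicates 1 to 4. The bil1-1D arrays therefore varied among themselves in root signal. The part of tissue make-up in the clock values was not tested, and in whole seedlings fewer cells of a type and less RNA per cell cannot be told apart.

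Levels are normalized log2 signals, where 0 is the 75th percentile of the array, and they compare arrays for 1 probe but not probes with each other. Changes are given as the log2 ratio of bil1-1D with brassinolide to wild type with DMSO and its SE. The test was limma's, with Benjamini-Hochberg adjustment over all genes tested and a threshold of 0.05. Most clock genes changed, and most changed by little. Of the 35 members, 17 rose, 10 fell and 8 did not pass, where 55.9% of all genes passed, 30.2% upward and 25.7% downward. That is 77.1% of the members called, 48.6% upward and 28.6% downward. The groups did not overlap for 26 members (74.3%), against 52.1% of all genes. Only 3 of the 35 members changed at least 2-fold, all downward, where 8.1% of all genes changed as much, 5.02% downward and 3.08% upward. The median absolute change was 0.33 over the members and 0.26 over all genes tested, on the log2 scale.

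**Figure D1:**
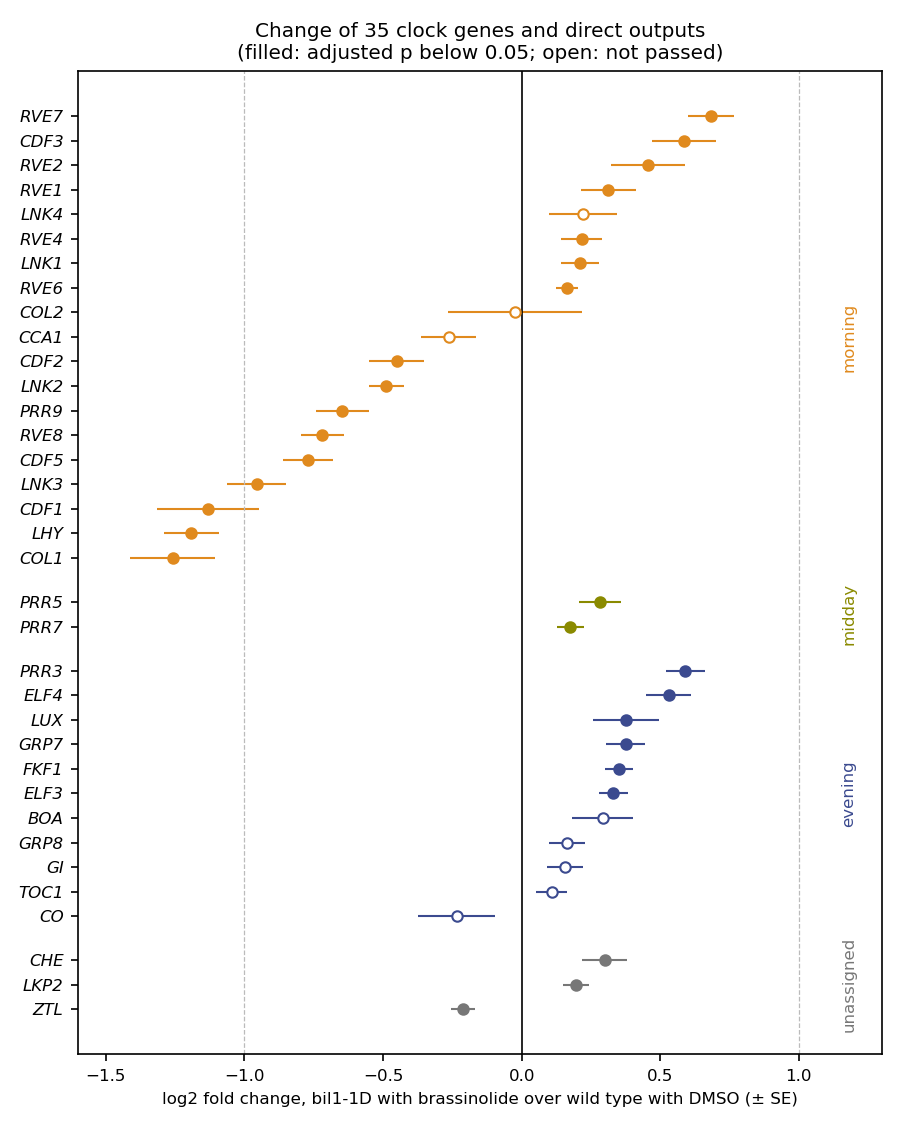
Log2 fold change of each of the 35 members (x axis; bil1-1D with brassinolide over wild type with DMSO, ± SE from limma), grouped down the page by the usual time of peak expression; filled points passed the test and dashed lines mark 2-fold. The morning genes spread from -1.26 for COL1 to 0.68 for RVE7, and no filled evening point lies below 0.

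The members were sorted by the time of day at which their transcripts are generally known to peak, as background knowledge and not from these arrays. Of 19 morning genes, 7 rose, 9 fell and 3 did not pass, with a median change of -0.26, where the median over all genes tested was 0.03. The morning median is the value of the middle gene, CCA1, which did not pass, and the class ran from -1.26 to 0.68. Of 11 evening genes, 6 rose, none fell (0 at an unadjusted p under 0.05) and 5 did not pass, with a median of 0.33. The share of evening genes called, 54.5% and all upward, lies near the 55.9% of all genes called, of which 30.2% upward and 25.7% downward. For the morning genes the share was 84.2%, with 36.8% upward and 47.4% downward. Both midday genes, PRR7 and PRR5, rose, with a median of 0.23. The 3 members given no class, CHE, ZTL and LKP2, all passed, 2 upward and 1 downward. Every fall but that of ZTL was therefore in a morning gene, yet the morning genes went both ways.

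These counts depended on scaling. With the arrays scaled to the spike-in RNAs instead, the median of all genes moved by -0.12, and of the 4382 genes called 32.3% were higher, against 54.1% of the 12349 called with the percentile. No clock member rose under that scaling by limma (3 were higher at an unadjusted p under 0.05), while 8 fell, all of them among the 10. By sign alone, 21 members were higher with the spike-ins and 22 with the percentile. The spike-ins were themselves variable: their group differences had SEs of 0.11 to 0.24. The scanner software's mark for evaluation was on 3 arrays, bil1-1D replicate 4 and wild-type replicates 1 and 2. Without them only replicates 3 and 4 were left of wild type, and 8803 of all genes passed. In that smaller fit 9 members rose and 12 fell. The rises of RVE1, RVE4, RVE6, LNK1, PRR7, PRR5, CHE and LKP2 then no longer passed (adjusted p = 0.0593 to 0.327), and CCA1 and COL2 passed as falls.

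Among the MYB factors, LHY fell and CCA1 moved little. LHY (AT1G01060), which with CCA1 represses evening genes from dawn, read -3.98, -4.26, -4.26 and -4.32 in bil1-1D, against -2.83, -3.03, -3.01 and -3.19 in wild type. All 4 bil1-1D arrays lay below all 4 wild-type arrays, and the transcript was 2.29-fold lower (-1.19 ± 0.10, adjusted p = 4.9e-05). With a normexp background correction the fall of LHY was smaller (-0.61, adjusted p = 0.000119). CCA1 (AT2G46830), its partner, read -3.05, -2.95, -2.99 and -3.11 in bil1-1D, against -2.90, -2.92, -2.48 and -2.76 in wild type. The groups of CCA1 did not overlap, but their nearest arrays almost met, and the change of -0.26 ± 0.10 narrowly missed the threshold (adjusted p = 0.0507). It passed without wild-type replicate 1 (-0.31, adjusted p = 0.0399) or replicate 2 (-0.31, adjusted p = 0.0390), and also when the probes of the gene were averaged (-0.46, adjusted p = 0.00293). The change of CCA1 was smaller without wild-type replicate 3 (-0.17, adjusted p = 0.0559) and with normexp (-0.17, adjusted p = 0.0942), and without bil1-1D replicate 4 the adjusted p was 0.116. It passed under 6 of the 22 alternatives. Another CCA1 probe, well above background on 2 of 4 bil1-1D arrays, differed by -0.65 (adjusted p = 0.00547 over all probes tested).

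RVE8 (AT3G09600), an activator of evening genes, fell with LHY. It read -5.29, -5.37, -5.42 and -5.45 in bil1-1D, against -4.48, -4.82, -4.68 and -4.67 in wild type, without overlap (-0.72 ± 0.08, adjusted p = 0.000154). With normexp the fall of RVE8 was -0.23 (adjusted p = 0.0065). The other RVE genes among the members rose, while RVE3, a relative outside the member list, fell (-1.65 ± 0.13, adjusted p = 3.8e-05). RVE7 (AT1G18330, also EPR1), a clock-regulated MYB gene, read -1.41, -1.56, -1.52 and -1.25 in bil1-1D, against -2.24, -2.16, -2.05 and -2.02 in wild type, and was 1.61-fold higher (0.68 ± 0.08, adjusted p = 0.000273), or 0.43 (adjusted p = 0.00500) as the mean of its probes. No member rose more by the probes used here, but with probes averaged PRR3 (0.59), CDF3 (0.59), ELF4 (0.53) and RVE2 (0.46) stood higher than RVE7, as PRR3 did without the marked arrays (0.66, against 0.54 for RVE7) and without bil1-1D replicate 4 (0.63, against 0.62). RVE2 (AT5G37260, also CIR1) read -2.46, -2.21, -2.36 and -2.08 in bil1-1D, against -2.45, -3.00, -2.63 and -2.85 in wild type. The groups of RVE2 met at bil1-1D replicate 1 and wild-type replicate 1. Its rise of 0.46 ± 0.13 (adjusted p = 0.0193) did not pass without bil1-1D replicate 4 (adjusted p = 0.0511) or wild-type replicate 4 (adjusted p = 0.0526).

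Smaller rises were seen for RVE1 (AT5G17300), which connects the clock to auxin synthesis, and for RVE4 (AT5G02840) and RVE6 (AT5G52660), relatives of RVE8. RVE1 rose by 0.31 ± 0.10 (adjusted p = 0.0280), and its call was lost without bil1-1D replicate 3 or 4 or wild-type replicate 2 or 4 (adjusted p = 0.0545 to 0.0735). RVE4 rose by 0.22 ± 0.07 (adjusted p = 0.0352) with overlapping groups. The call of RVE4 was lost without bil1-1D replicate 1, 2 or 4, without wild-type replicate 1, 2 or 4 (adjusted p = 0.0601 to 0.0880), and with normexp (0.14, adjusted p = 0.0895). RVE6 had the smallest SE of all members, with levels from -1.57 to -1.52 in bil1-1D and from -1.76 to -1.66 in wild type. Its rise was 0.16 ± 0.04 (adjusted p = 0.00995), or 0.11 (adjusted p = 0.0712) as the mean of its probes.

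The LNK genes, whose proteins are coactivators recruited by RVE8, went in both directions. LNK3 (AT3G12320) read -2.21, -1.91, -2.05 and -2.33 in bil1-1D, against -1.14, -1.30, -0.97 and -1.26 in wild type. The groups stood well apart, and LNK3 was 1.94-fold lower (-0.96 ± 0.11, adjusted p = 0.000191). LNK2 (AT3G54500) read -0.40, -0.40, -0.36 and -0.37 in bil1-1D, against -0.01, 0.05, 0.26 and 0.11 in wild type. It fell by 0.49 ± 0.06 on the log2 scale (adjusted p = 0.000368), and by 0.74 (adjusted p = 0.000188) as the mean of its probes. LNK1 (AT5G64170) rose by 0.21 ± 0.07 (adjusted p = 0.0287), a call lost without bil1-1D replicate 2 or 3 or wild-type replicate 1 or 2 (adjusted p = 0.0616 to 0.0778) and with normexp (0.18, adjusted p = 0.0524). Another LNK1 probe differed by -0.50 (adjusted p = 0.0797 over all probes tested), and the mean of the probes was -0.14 (adjusted p = 0.382). LNK4 (AT5G06980) differed by 0.22 ± 0.12 and did not pass (adjusted p = 0.155), though it passed without wild-type replicate 3 (0.32, adjusted p = 0.0245).

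**Figure D2:**
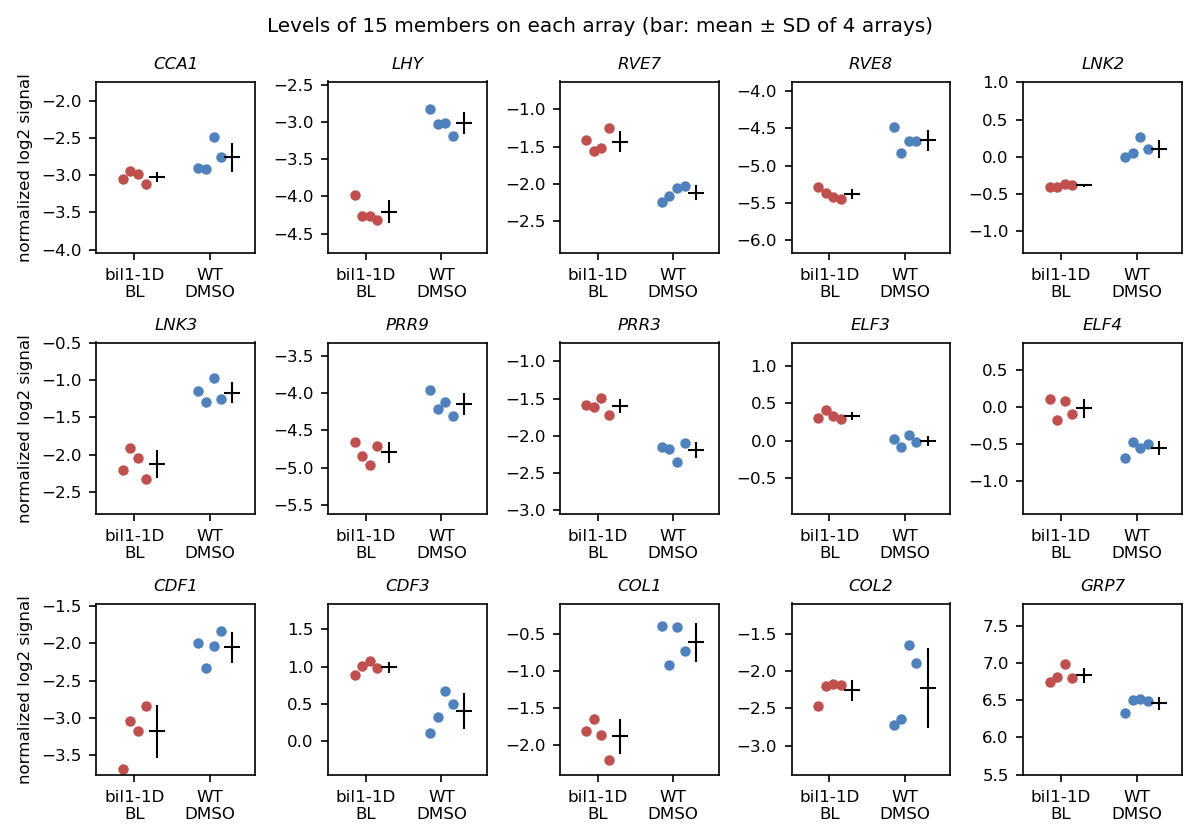
Normalized log2 signal of 15 members on each of the 8 arrays, with the 4 arrays of bil1-1D with brassinolide (BL) left and the 4 of wild type with DMSO right in each panel; bars are mean ± SD, and every panel spans the same height on the log2 scale. LHY, RVE8, LNK3, PRR9, CDF1 and COL1 are lower in bil1-1D on all arrays, RVE7, PRR3, ELF3, ELF4, CDF3 and GRP7 are higher, and wild-type COL2 splits into a high and a low pair.

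Among the PRR genes, whose proteins repress CCA1 and LHY in turn from morning to night, the earliest fell and the later ones rose or did not pass. PRR9 (AT2G46790), the morning member, read -4.66, -4.84, -4.97 and -4.71 in bil1-1D, against -3.96, -4.22, -4.12 and -4.31 in wild type. It was 1.57-fold lower without overlap (-0.65 ± 0.10, adjusted p = 0.000773). With normexp PRR9 stood at -0.25 (adjusted p = 0.00414), and as the mean of its probes at -0.31 (adjusted p = 0.0844), where another probe, well above background on 3 of 4 bil1-1D arrays, showed 0.04. PRR7 (AT5G02810) read 0.92, 1.03, 0.97 and 0.96 in bil1-1D, against 0.83, 0.71, 0.81 and 0.84 in wild type (0.18 ± 0.05, adjusted p = 0.0151). As the mean of its probes PRR7 was at 0.11 (adjusted p = 0.476). PRR5 (AT5G24470) read 0.61, 0.38, 0.45 and 0.38 in bil1-1D, against 0.20, 0.20, 0.01 and 0.26 in wild type (0.28 ± 0.08, adjusted p = 0.0132). Both had small but separate groups. PRR3 (AT5G60100) read -1.59, -1.62, -1.49 and -1.72 in bil1-1D, against -2.15, -2.18, -2.35 and -2.10 in wild type. It was 1.51-fold higher (0.59 ± 0.07, adjusted p = 0.000271), the largest change among the evening genes as reported. TOC1 (AT5G61380), the founding member and an evening repressor of CCA1 and LHY, read -0.71, -0.89, -0.81 and -0.81 in bil1-1D, against -0.82, -0.96, -0.97 and -0.90 in wild type. The TOC1 groups overlapped and the change of 0.11 ± 0.06 did not pass (adjusted p = 0.130), though it passed with median scaling (0.17, adjusted p = 0.0380).

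All 4 genes of the evening complex group were higher in bil1-1D, and 3 of them passed, where 30.2% of all genes passed upward. ELF4 (AT2G40080), a small protein that binds ELF3, read 0.10, -0.17, 0.08 and -0.09 in bil1-1D, against -0.68, -0.47, -0.56 and -0.50 in wild type, and was 1.44-fold higher (0.53 ± 0.08, adjusted p = 0.000846). ELF3 (AT2G25930), the scaffold of the complex, read 0.30, 0.41, 0.32 and 0.29 in bil1-1D, against 0.02, -0.08, 0.08 and -0.02 in wild type (0.33 ± 0.05, adjusted p = 0.000994). Neither gene's groups overlapped. LUX (AT3G46640, also PCL1), the DNA-binding member, read 2.13, 1.83, 1.84 and 1.88 in bil1-1D, against 1.72, 1.65, 1.22 and 1.59 in wild type. Its rise of 0.38 ± 0.12 (adjusted p = 0.0277) rested in part on single arrays, since it did not pass without bil1-1D replicate 1 (0.31, adjusted p = 0.0662) or replicate 4 (0.39, adjusted p = 0.05003) or wild-type replicate 4 (0.39, adjusted p = 0.0507). BOA (AT5G59570), the close relative of LUX, differed by 0.29 ± 0.11 with overlapping groups and narrowly missed the threshold (adjusted p = 0.0533). It passed without bil1-1D replicate 3 (0.36, adjusted p = 0.0346) or wild-type replicate 1 (0.37, adjusted p = 0.0148), with quantile scaling (0.40, adjusted p = 0.0192) and in the authors' value table (0.38, adjusted p = 0.0179).

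GI (AT1G22770), a partner of the ZTL-type F-box proteins, read 0.58, 0.32, 0.47 and 0.46 in bil1-1D, against 0.34, 0.36, 0.22 and 0.29 in wild type, and did not pass (0.16 ± 0.06, adjusted p = 0.0687). It passed without bil1-1D replicate 2 (0.20, adjusted p = 0.0235), and another GI probe differed in the other direction (-0.32, adjusted p = 0.0397 over all probes tested). FKF1 (AT1G68050), the family member that with GI targets CDF proteins for degradation, read 1.73, 1.71, 1.81 and 1.70 in bil1-1D, against 1.33, 1.44, 1.33 and 1.45 in wild type. Its groups did not overlap and it rose 1.28-fold (0.35 ± 0.05, adjusted p = 0.000729). ZTL (AT5G57360), which targets TOC1 and PRR5, fell by 0.21 ± 0.04 on the log2 scale (adjusted p = 0.00426), while LKP2 (AT2G18915) rose by 0.20 ± 0.05 (adjusted p = 0.00807). CHE (AT5G08330), a TCP-type factor that represses CCA1, rose by 0.30 ± 0.08 (adjusted p = 0.0141). All 3 had groups without overlap and small changes, at most 1.23-fold for CHE.

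Of the 7 CDF, CO and COL genes, which carry the clock to flowering time, 4 fell, 1 rose and 2 did not pass. Over all genes tested, 25.7% fell and 30.2% rose. The CDF genes encode DOF-type repressors of CO and of the flowering signal gene FT. CDF1 (AT5G62430) read -3.68, -3.04, -3.18 and -2.84 in bil1-1D, against -2.00, -2.33, -2.03 and -1.83 in wild type, and was 2.19-fold lower (-1.13 ± 0.18, adjusted p = 0.00123). Replicate 1 was the lowest of the bil1-1D arrays, yet the groups stayed apart, and with normexp the fall of CDF1 was -0.69 (adjusted p = 0.000781). CDF5 (AT1G69570) read -4.30, -4.18, -4.35 and -4.10 in bil1-1D, against -3.30, -3.65, -3.37 and -3.52 in wild type (-0.77 ± 0.09, adjusted p = 0.000253), and with normexp stood at -0.40 (adjusted p = 0.000731). CDF2 (AT5G39660) fell by less (-0.45 ± 0.10, adjusted p = 0.00511). CDF3 (AT3G47500) rose, with 0.89, 1.00, 1.08 and 0.99 in bil1-1D, against 0.12, 0.33, 0.68 and 0.50 in wild type. CDF3 was 1.501-fold higher (0.59 ± 0.12, adjusted p = 0.0032), and its wild-type arrays were more spread than its bil1-1D arrays.

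COL1 (AT5G15850), a relative of CO that peaks near dawn, read -1.80, -1.65, -1.86 and -2.20 in bil1-1D, against -0.40, -0.92, -0.41 and -0.73 in wild type, and was 2.39-fold lower (-1.26 ± 0.15, adjusted p = 0.000301). Its fall, that of LHY and that of CDF1 lay within their SEs of each other, and their order changed between alternatives. CO (AT5G15840), the B-box activator of FT, lies 1 protein-coding gene away from COL1 on chromosome 5. It read -4.21, -4.41, -4.44 and -4.58 in bil1-1D, against -4.51, -3.90, -4.03 and -4.26 in wild type. These groups overlapped and CO did not pass (-0.23 ± 0.14, adjusted p = 0.181), though it did without wild-type replicate 1 (-0.35, adjusted p = 0.0365), and with normexp its sign turned (0.01, adjusted p = 0.866). COL2 (AT3G02380) read -2.47, -2.19, -2.17 and -2.19 in bil1-1D, against -2.73, -2.65, -1.66 and -1.90 in wild type. Wild-type replicates 1 and 2 were about 1 log2 unit below replicates 3 and 4, so the mean change of -0.02 ± 0.24 (adjusted p = 0.937) has the widest error of all members. Those low wild-type arrays are both among the 3 marked by the scanner software. Without the 3, wild type was the high pair alone, and COL2 was at -0.50 (adjusted p = 0.0352).

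GRP7 (AT2G21660) and GRP8 (AT4G39260) encode glycine-rich RNA-binding proteins whose transcripts peak in the evening. GRP7 read 6.75, 6.81, 6.98 and 6.79 in bil1-1D, against 6.33, 6.501, 6.52 and 6.48 in wild type (0.37 ± 0.07, adjusted p = 0.00226). No spot was saturated. The rise of GRP7 shrank to 0.11 with quantile scaling (adjusted p = 0.0666) and with normexp (adjusted p = 0.108). GRP8 read 5.96, 6.20, 6.13 and 6.20 in bil1-1D, against 5.90, 6.02, 5.93 and 5.98 in wild type, and did not pass (0.16 ± 0.06, adjusted p = 0.0606). Without bil1-1D replicate 1 GRP8 passed (0.22, adjusted p = 0.0110). Because GRP7 and GRP8 are similar in sequence, their probes may cross-hybridise and each value is uncertain.

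To see each class array by array, the difference of every member from its wild-type mean was taken and the median formed over the class. The evening genes had medians of 0.30, 0.32, 0.29 and 0.32 on the bil1-1D arrays, against 0.02, 0.06, -0.06 and 0.03 on the wild-type arrays. The morning genes had medians of -0.29, -0.19, -0.23 and -0.35 on the bil1-1D arrays, against 0.03, -0.13, 0.14 and 0.003 on the wild-type arrays. The evening median lay higher on every bil1-1D array than on any wild-type array. Wild-type medians lie near 0 by construction, so this separation restates the fold changes above and is no further test. With 11 genes, the evening median is also the value of a single middle gene on each array. The morning median on each bil1-1D array was the value of CCA1 alone, so it describes the middle gene and not a shift of the class. Over all genes the medians were 0.02 to 0.05 in bil1-1D and -0.03 to 0.02 in wild type.

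**Figure D3:**
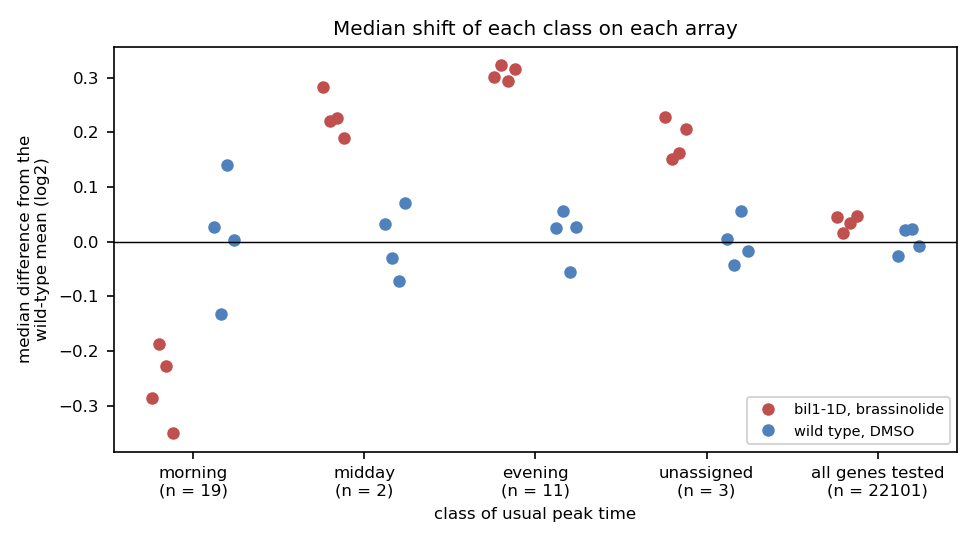
Median difference from the wild-type mean (y axis, log2) over the members of each class of usual peak time and over all genes tested, with 1 point per array and bil1-1D left of wild type in each class. The 4 bil1-1D points lie between 0.29 and 0.32 for the evening genes and between -0.35 and -0.19 for the morning genes, where the middle gene is CCA1 on each.

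Some close relatives among the members changed unequally. In 11 pairs, chosen for known relatedness with the values already known, the difference between the 2 fold changes was formed within each array. The exact two-sided permutation test over arrays can give no p below 0.0286, and 10 of the 11 pairs reached it (adjusted p = 0.0314 over the 11). Because the pairs were chosen with the values known, these p-values do not keep their nominal error rate. For the same reason, the count says nothing of relatives in general. RVE4 and RVE6, which rose by 0.22 and 0.16, were not paired with each other, nor were CDF1, CDF2 and CDF5, which all fell. LHY fell further than CCA1 (CCA1 minus LHY, 0.93 ± 0.16), and with normexp the fold change of CCA1 minus LHY was 0.45. RVE8 and RVE4 differed by 0.94 ± 0.10 (RVE4 minus RVE8), and with normexp the fold change of RVE4 minus RVE8 was 0.37. LNK1 and LNK2 differed by 0.70 ± 0.03 (LNK1 minus LNK2) and LNK3 and LNK4 by -1.18 ± 0.08 (LNK3 minus LNK4). For CDF2 minus CDF3 the difference was -1.04 ± 0.14, for PRR9 minus PRR5 it was -0.93 ± 0.13 and for COL1 minus COL2 it was -1.23 ± 0.31. With normexp the fold change of PRR9 minus PRR5 was -0.44, and without the 3 marked arrays the fold change of COL1 minus COL2 was -0.70. PRR7 minus PRR3 gave -0.41 ± 0.08 and ZTL minus LKP2 gave -0.41 ± 0.03. GRP7 minus GRP8 gave 0.21 ± 0.07, but this turned to -0.05 with normexp. LUX minus BOA gave 0.08 ± 0.13 (exact p = 0.629), so no difference was detectable between these at this number of arrays.

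Of 28 further genes tied to the clock, 27 were tested, of which 10 rose, 7 fell and 10 did not pass, with a median of 0.10. This share of 63.0% called, with 37.0% upward and 25.9% downward, lies near that of all genes. COR27 (1.03 ± 0.29, adjusted p = 0.0153) and COR28 (1.03 ± 0.11, adjusted p = 0.000148), a pair of clock-regulated and cold-induced repressors of PRR5 and TOC1, rose about as much as JMJD5 (1.00 ± 0.08, adjusted p = 4.5e-05), an evening-expressed histone demethylase gene. COR28 read -0.49, -0.60, -0.56 and -0.65 in bil1-1D, against -1.59, -1.54, -1.92 and -1.38 in wild type. RVE3 (-1.65 ± 0.13, adjusted p = 3.8e-05), a relative of RVE8, fell furthest. FT, the flowering signal gene downstream of CO and the CDF repressors, fell as well (-0.90 ± 0.16, adjusted p = 0.00195), as did the splicing factor gene SKIP (-0.70 ± 0.06, adjusted p = 4.6e-05). RVE3 read -6.29, -6.48, -6.34 and -6.74 in bil1-1D, against -4.59, -4.71, -4.89 and -5.06 in wild type, so this dim gene lay lower on every bil1-1D array.

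LHY, RVE8, LNK2, LNK3, CDF1, CDF5 and COL1 passed as falls under all 22 alternatives run. Their sizes moved, since normexp brought all 7 nearer to 0 and spike-in scaling took all 7 further below it. Of the 17 members with more than 1 tested probe, LNK1, PRR9, GI and GRP7 had a further probe whose difference had the other sign.

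**Figure D4:**
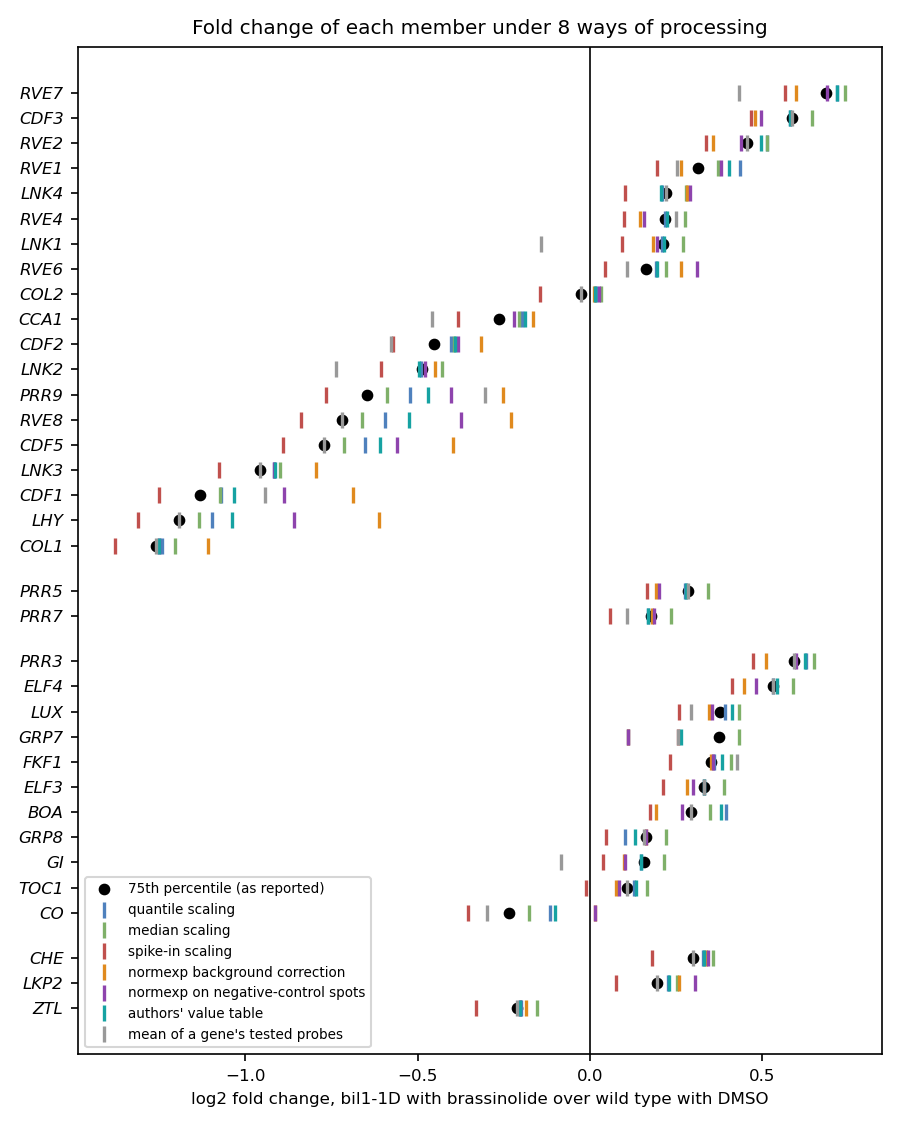
Log2 fold change of each member (x axis; bil1-1D with brassinolide over wild type with DMSO) under 8 ways of processing, with the value as reported as a black point and each alternative as a tick. The rises shift left together with spike-in scaling, where TOC1 stands at -0.01, and the morning genes that fell stay below 0 under all 8.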

How the data were processed

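Intensity values of 8 single-colour (Cy3) arrays were used. Per the file headers, the processed intensity is the background-subtracted, detrended signal that Feature Extraction 11.5.1.1 wrote for array design 021169, with no scaling between arrays. Version 9.1.3.1 stands in the submitters' processing notes. The authors' deposited value table holds natural log values as judged from its numbers, seemingly quantile normalized, with centring unknown, and served as an alternative only. Scaling, floor and log2 steps were done here on the deposited intensities.

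Outlier spots (93 over all arrays) were left out, spots of a probe averaged, signals divided by the array's 75th percentile, set to at least 0.001 of it, and log2 taken. Of 43603 probes, 36163 matched 1 locus through RefSeq accessions. A probe was tested if well above background on all arrays of a group, and the brightest tested probe stood for its gene. limma 3.58.1 in R 4.3.3 compared the groups over 22101 genes. Figures used Python 3.11.15 with matplotlib 3.10.9. On simulated data (22072 genes) the fit recovered 56.7%, 91% and 98.5% of changes of 0.5, 1 and 2 on the log2 scale. Only 67, 67 and 66 genes were changed there, where 55.9% of all genes passed in the data. With so few changed genes the adjustment was stricter than in the data, so these rates do not carry over to the members. The members were taken by locus identifier, and no measured value entered that rule. The members, lists, pairs and alternatives were nonetheless set with earlier results of these data known. All 35 members are named by rule, with the 3 largest rises and falls of the further clock genes. The 2 brightest markers of each tissue list are named too, as are DWF4 and CPD, genes of brassinosteroid synthesis. Since genotype and treatment changed together, the fall of DWF4 and CPD cannot check the hormone response alone. The labels do not say whether replicate numbers pair the samples, so the fit reported used no block. Promoter and protein sequences were not used here. Normexp used median spot signals in place of the intended means, which are not used here.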

Additional observations from a re-analysis of the deposited data

Results flagged for a closer look

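In 3 of the 70 sets of 4 arrays (each member in each group), 1 array stood apart from the other 3 by Dixon's 95% criterion, where chance flags about 1 in 20 sets. LUX read 2.13 on bil1-1D replicate 1 and 1.83 to 1.88 on the other bil1-1D arrays. COL2 read -2.47 on bil1-1D replicate 1 and -2.19 to -2.17 on the others. LKP2 read -1.80 on wild-type replicate 2 and -1.72 to -1.70 on the others.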

How the results depend on the processing

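The 22 alternatives gave values for single members of which 673 kept direction and side of the threshold, 60 lost the call, 24 gained one and 13 turned sign; the causes were not tested. With spike-in scaling 8 members passed, 0 upward (3 at an unadjusted p under 0.05 in limma) and 8 downward, and 4382 genes passed, 1417 upward and 2965 downward; the median change was -0.38 for morning and 0.21 for evening genes, and TOC1 turned to -0.0106. Without the 3 marked arrays, 9 members rose and the morning median was -0.50. With normexp the morning median was -0.17 and the evening median 0.19. The evening median was 0.27 with normexp on the negative controls, 0.39 with median scaling and 0.29 with a gene's probes averaged, where LNK1 (-0.14) and GI (-0.0834) turned sign. CO turned to 0.0132 and 0.0146 with the 2 normexp forms. COL2 turned to 0.018 with quantile scaling, 0.0325 with median scaling, 0.011 and 0.0273 with the 2 normexp forms and 0.0157 in the authors' value table, and ran from -0.19 to 0.167 on leaving out 1 array, turning sign without bil1-1D replicate 1 or wild-type replicate 3 or 4. Among pairs, the fold change of LUX minus BOA turned to -0.00271 with quantile scaling, and the fold change of GRP7 minus GRP8 to -0.0536 and -0.0543 with the 2 normexp forms. On leaving out 1 array at a time, 23 to 28 members passed, 13 to 18 upward and 10 to 12 downward, and 10750 to 12330 genes passed, 5741 to 6750 upward and 5009 to 5666 downward; the morning median was -0.31 to -0.17 and the evening median 0.27 to 0.34. Of 27 called members, 22 kept the call on leaving out any 1 array.

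Deviations of arrays with the same replicate number correlated at -0.10, -0.28, 0.17 and 0.04. These values cannot show whether the samples were grown or harvested in pairs, and the labels do not say. With the replicate number as a block 14 members rose, 10 fell and 11337 genes passed. No block for slide or scan was run, because each slide and each scan holds 1 group. Dim members are limited by signal over background. No promoter motif was searched, since no sequence was used here.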
